A study of Mus musculus with 6 samples.

Results

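A group of genes known for their part in nerve injury and axon growth, Sprr1a, Gap43, Basp1, Gadd45a, Arg1, Gch1, Reg3b, Cd44, Itga7 and Tgm1, were followed in ganglia of burned and control mice. They were picked by name, 10 genes of 38926 gene symbols, with earlier burn against control results of these libraries in view, so their differences between the groups are given as a description and not as tests. All 10 symbols were in the files, and 9 passed the filter on low counts. Reg3b did not pass. The RNA came from whole dorsal root ganglia, where the cell bodies of sensory neurons sit next to the spinal cord, at levels L3, L4 and L5 of wild type male C57BL/6 mice aged 6 to 8 weeks. The burn group held 3 libraries from mice taken 3 days after the injury, and the control group held 3 libraries whose handling the labels do not describe further. The burn library titled as ipsilateral carries no number and is called burn 3. The labels say neither whether animals were pooled nor whether libraries came from separate animals, so the spread behind errors and p-values may be technical.

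Between 17273908 and 81968142 reads per library were counted in genes, and burn 3 and control 3 were the 2 deeper libraries. The labels call the tissue both neurons and whole ganglia. The 10 markers of sensory neurons summed to between 7143 and 9555 CPM, read counts scaled to library size with TMM factors, in the 6 libraries, and 9 markers of Schwann cells to between 4298 and 9753 CPM. In bulk tissue, fewer cells of a type and less RNA per cell cannot be told apart. Of the 10 neuron markers 1 had a positive log2 fold change, with a median of -0.10, and of 10 neutrophil markers 0 did, with a median of -0.28, though none passed in edgeR. Skeletal muscle markers ran from 833 to 12797 CPM with high and low libraries in both groups. All 10 spinal cord markers had positive log2 fold changes, as 52.1% of all tested genes did, and none of the 10 passed in edgeR. Their median was 1.39, with sums of 66.4 to 104 CPM in controls and 108 to 225 CPM after the burn. Their part in the results was not tested.

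After damage to its axon, a sensory neuron switches on a set of regeneration-associated genes. Transcription factors such as Atf3 and Jun are made early, and effector genes follow that build the growth cone, remodel the cell surface and alter metabolism. Gap43 and Basp1 are lipid-anchored proteins of the growth cone membrane, and integrins and Cd44 tie the cell to the surrounding matrix. Sprr1a is best known from the hardened envelope of skin cells, but injured sensory neurons also make it.

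Sprr1a, the small proline-rich protein linked to neurite outgrowth, was nearly absent from control ganglia. It lies on chromosome 3 at 92483952 to 92485895, on the minus strand, in GRCm38. Sprr1a stood at 0.0546, 0.0556 and 0.239 CPM in controls 1, 2 and 3 and at 19.7, 16.1 and 3.86 CPM in burn libraries 1, 2 and 3. All burn libraries lay above all controls, and burn 3 was the lowest of its group by a wide margin while control 3 was the highest of its own. The reads pooled by group, 1187 after the burn and 22 in controls, gave a ratio of 61.0 (95% exact interval 40.1 to 97.8, for counting error only). The fitted log2 fold change was 6.43 (SE 0.84). On the scale of log2 of CPM plus 0.1, burn minus control was 3.55 in the deeper pair and 6.85 in the 4 shallower libraries. The difference kept its sign at both depths, but burn libraries differed from each other 5.11-fold at the extremes.

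The promoter of Sprr1a is shown because Atf3 and Jun, which bind as AP-1 and related dimers, are themselves induced by axon damage. In these libraries Atf3 was called in the main fit and in every alternative fit, and Jun in none. Only the 250 bases before the RefSeq start site were read, at chr3:92485882-92486131 in GRCm38.p6, on the minus strand. The capitals mark TGAGTCA, which matches the AP-1 motif TGANTCA, and TATAAA, the TATA box.
Sprr1a: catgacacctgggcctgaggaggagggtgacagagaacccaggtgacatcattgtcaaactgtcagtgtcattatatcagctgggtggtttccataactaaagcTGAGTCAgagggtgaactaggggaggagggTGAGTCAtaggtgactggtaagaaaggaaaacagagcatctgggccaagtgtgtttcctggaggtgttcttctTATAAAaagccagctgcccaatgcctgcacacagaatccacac
The AP-1 matches lie 146 to 140 and 116 to 110 bases before the start, and the TATA box lies 43 to 38 bases before it. Searched on both strands, 6.75% of 32851 RefSeq windows of this length held TGANTCA and 0.338% held 2 or more matches. TATAAA was in 12.4% of the windows. A match describes letters and does not show that a factor binds there. Windows were found for 7 of the 10 genes, and Gap43, Arg1 and Itga7 had none in the table. Among the other 6 genes with a window, AP-1 letters were in none, and the letters TGACGTCA of the cyclic AMP response element and TGATGCAA of the C/EBP-ATF element were in none of the 7. On either strand, TATAAA was also found for Gch1 and Reg3b. Tgm1 held TTCNNNGAA, a STAT motif, 173 to 165 and 64 to 56 bases before a start site, and Reg3b 129 to 121 bases before it. Of all windows 0.317% held 2 or more matches of this motif.

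**Figure D1:**
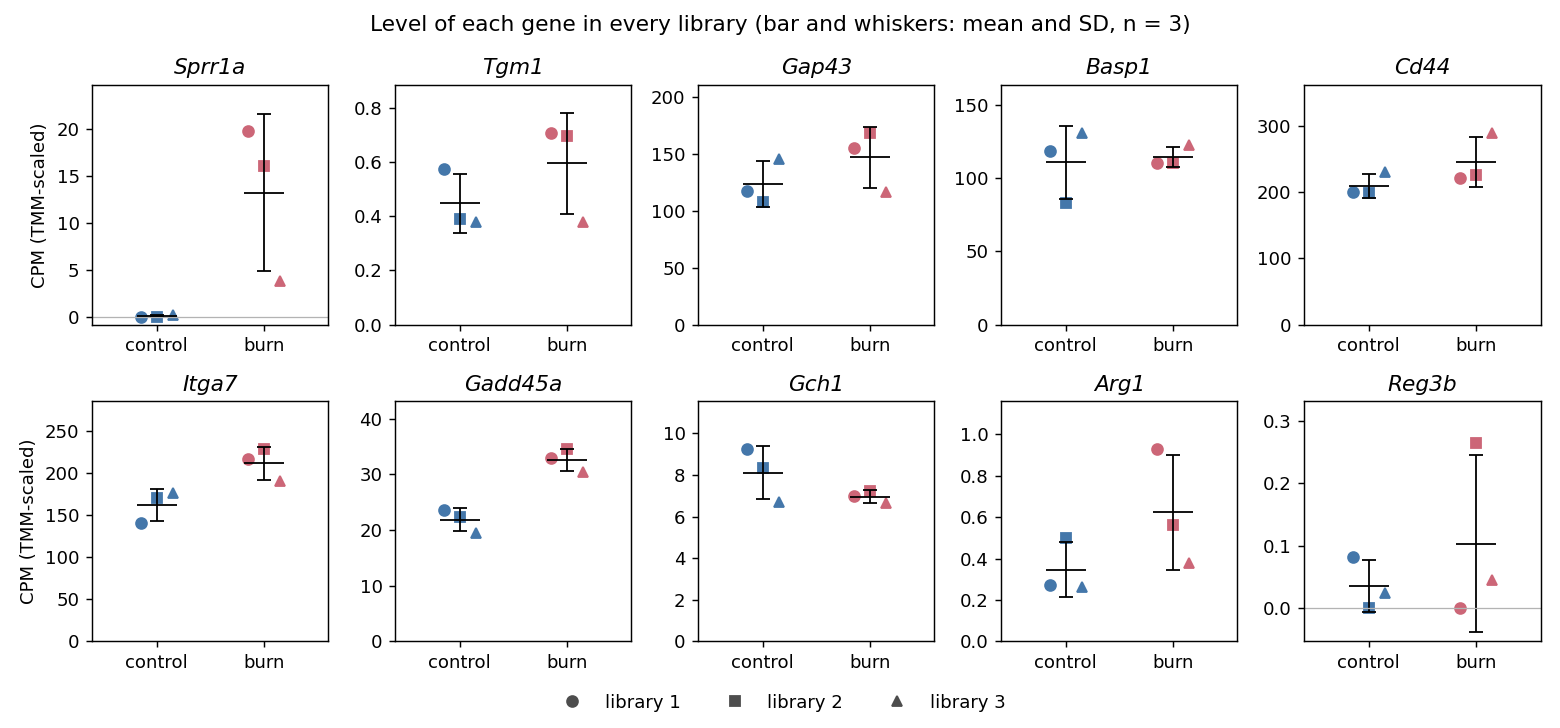
CPM of each of the 10 genes (vertical axes, linear) in the 3 control (blue) and 3 burn (red) libraries, with the library number as symbol shape and the mean and SD (n = 3) as bar and whiskers. Sprr1a, Gadd45a and Itga7 have no overlap between groups, and burn 3 is the lowest burn library in 7 of the 10 genes. The share of all tested genes with burn 3 lowest was not counted, so the 7 cannot be read as particular to these genes.

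The reads on Sprr1a were not shared by the rest of its family. The files hold 15 other Sprr symbols, and over all 6 libraries they received 2 reads together, against 1209 on Sprr1a, with 13 of the 15 at 0. Some of the Sprr2 genes are near-identical copies of each other. Reads placed equally well in several such copies are not counted, so the zeros of these copies are uncertain. Of 25 other genes fixed for the cornified envelope, the protein shell of skin cells, 2 passed the filter. The log2 fold change was 0.32 (SE 0.23) for periplakin (Ppl) and -0.12 (SE 0.23) for envoplakin (Evpl), and neither passed the test over all genes.

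Markers of keratinocytes, the skin cells that make Sprr1a, overlapped between the groups. The 14 markers summed to 21.6 to 37.5 CPM in controls and 23.6 to 28.1 CPM after the burn. Perp held more reads than any other marker in every library, so the sum mainly follows this gene. Perp had 723, 384 and 998 reads in controls 1 to 3 and 361, 409 and 1040 after the burn. The groups were apart in 0 of the 14, beside 7.24% of all tested genes. Of the 14, 8 passed the filter and 4 had under 10 reads in every library. The basal keratins Krt5 and Krt14 had at most 2 and 8 reads in any burn library. Control 2 held the most, 21 and 56 reads, and it held 1 read of Sprr1a. Markers of more mature skin layers had more reads. Krt10 had 66, 37 and 137 reads in controls 1 to 3 and 41, 44 and 136 after the burn. Krtdap had 63, 50 and 65 reads and 50, 55 and 79 reads. The envelope gene Lor had 0, 1 and 7 reads in controls and 6, 3 and 5 after the burn. The genes singled out here were chosen after their values were seen. Muscle markers stood at 3171, 11700 and 2067 CPM in burn libraries 1, 2 and 3, where Sprr1a stood at 19.7, 16.1 and 3.86, and at 12797, 4326 and 833 CPM in controls 1, 2 and 3. The part of skin or muscle in the Sprr1a values was not tested.

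The gene whose profile lay nearest to that of Sprr1a was Npy, which encodes neuropeptide Y. Likeness was the root mean square difference of log2 CPM over the 6 libraries, each gene centred on its own mean, and 15529 genes were compared. Npy lay at 0.99, followed by Gpr151, an orphan receptor, at 1.46, Atf3 at 1.63, Ecel1, a neuronal relative of the neprilysin endopeptidase, at 1.87, and Nmrk2, a nicotinamide riboside kinase, at 2.26. For scale, Sprr1a itself varied by 3.23 about its mean. Npy stood at 0.164, 0.223 and 0.251 CPM in controls 1 to 3 and at 6.67, 10.2 and 3.54 CPM in burn libraries 1 to 3. Nmrk2 stood at 1.31, 0.445 and 0.767 CPM in controls and at 3.05, 11.6 and 1.10 CPM after the burn. In all 5 of these genes burn 3 was the lowest burn library, and in Nmrk2 it fell below control 1. These likenesses are descriptive, since a large difference between the groups is enough to give a small distance. The low place of burn 3 is not independent of the choice either, since burn 3 was also the lowest burn library of Sprr1a.

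Tgm1 encodes the transglutaminase that cross-links small proline-rich proteins in skin, on chromosome 14 at 55700009 to 55713926. It had 21, 7 and 30 reads in controls 1 to 3 and 16, 21 and 25 reads after the burn. In CPM it stood at 0.573, 0.389 and 0.377 in controls and at 0.707, 0.695 and 0.380 after the burn, and burn 3 lay among the controls. The pooled ratio was 1.21 (95% exact interval 0.832 to 1.76), so a difference was not detectable at this depth. Exons of Tgm1 overlap 182 bases of Gm49067 on the other strand. Of the 8 other transglutaminase genes 4 were tested, with a median log2 fold change of 0.08. Tgm2, the transglutaminase of most tissues, stood at 48.05 ± 10.9 CPM in controls and 51.5 ± 15.6 after the burn (SD, n = 3), and F13a1, the clotting factor subunit made by macrophages, at 55.4 ± 20.7 and 57.5 ± 16.8 CPM. Tgm5, an epidermal form, had 0.52 (SE 0.30) and Tgm4 -0.11 (SE 0.23). None of the 4 passed over all genes.

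Gap43 was already abundant in control ganglia and overlapped between the groups. This gene lies on chromosome 16 at 42248442 to 42340651, and its protein is a substrate of protein kinase C that organises actin in growth cones. It stood at 117, 107 and 146 CPM in controls 1 to 3 and at 155, 168 and 117 CPM in burn libraries 1 to 3. Burn 1 and burn 2 lay above every control, while burn 3 lay below control 1 and control 3. The fitted log2 fold change was 0.25 (SE 0.18), a 1.19-fold difference. On the scale of log2 of CPM plus 0.1, Gap43 was lower in the burn library of the deeper pair (-0.32) and higher in the burn libraries of the 4 shallower ones (0.53). Its direction therefore differed between the depth classes, a difference that was not tested. The sum of sensory neuron markers stood at 9555 CPM in control 3 and 7329 CPM in burn 3, the deeper pair, and at 7471 and 7544 CPM in controls 1 and 2 beside 7143 and 8352 CPM in burn 1 and burn 2. The part of neuronal content in the Gap43 values was not tested. The nearest profiles to Gap43 were those of 2010300C02Rik, Cyp46a1, a cholesterol hydroxylase of neurons, Lrfn2, a synaptic adhesion protein, Ankrd34a and Etv5, an ETS transcription factor, at distances of 0.05 to 0.08 where Gap43 varied by 0.24 about its mean.

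Basp1, which like Gap43 binds calmodulin and membrane lipids, differed least of the 9 tested members. Located on chromosome 15 at 25363277 to 25413764, it stood at 118, 83.1 and 131 CPM in controls 1 to 3 and at 110.4, 110.2 and 122 CPM after the burn. All burn libraries lay within the control range, and the fitted log2 fold change was 0.05 (SE 0.17). Without control 2, the lowest library, the value turned to -0.12.

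Of 18 other growth cone proteins tested, 13 had a positive log2 fold change, with a median of 0.09 beside 0.01 over all 17534 genes tested. None passed in edgeR over all genes, 2 were higher at an unadjusted p under 0.05, and DESeq2 called 1 and limma-voom 0. Of all tested genes 2.04% were higher and 0.924% lower at that unadjusted p, for comparison with this list and those below. Stmn4, a stathmin that binds tubulin, stood at 8.27, 9.29 and 8.38 CPM in controls and at 13.3, 14.8 and 15.6 CPM after the burn (log2 fold change 0.75, SE 0.13, edgeR adjusted p 0.496). Chl1, a cell adhesion molecule close to L1, stood at 79.0, 75.1 and 107 CPM and at 120, 119 and 157 CPM (0.60, SE 0.18, edgeR adjusted p 0.9998). In both genes burn 3 was not the lowest burn library, in contrast to Gap43, and the groups were apart. Dpysl5 had 0.18 (SE 0.11) and Crmp1 0.24 (SE 0.14), both collapsin response mediators of axon guidance. Of the 18 genes, the groups were apart in 3 that were higher (Stmn4, Chl1 and Dpysl5) and 1 that was lower. Over all tested genes 4.33% were apart and higher and 2.91% apart and lower.

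**Figure D2:**
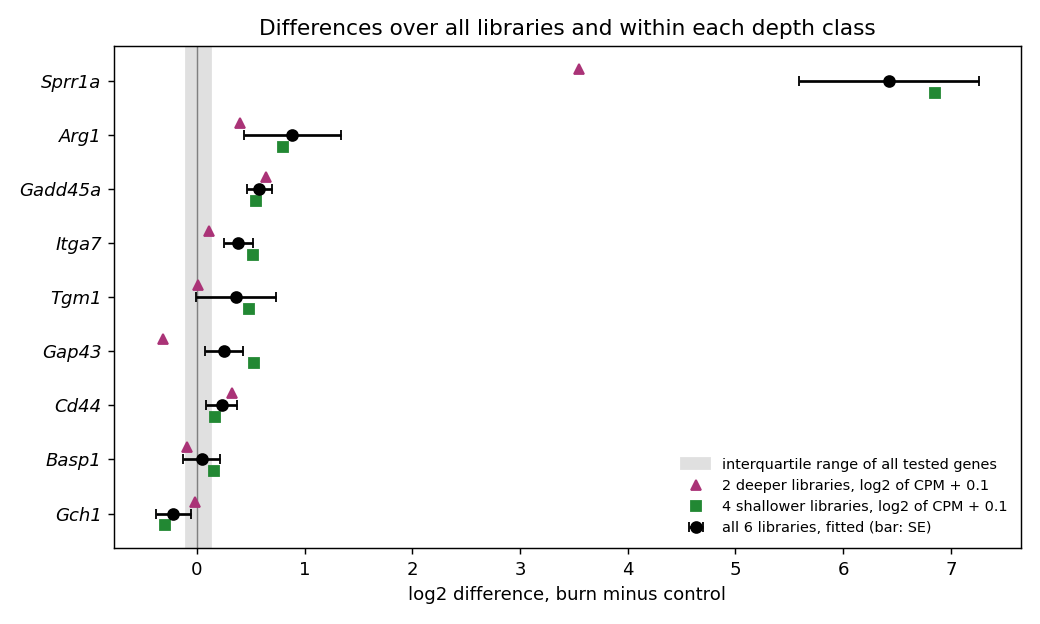
Log2 difference of burn minus control (horizontal axis) for the 9 tested genes, as fitted over all libraries (circles, SE bars) and within the 2 deeper (triangles) and 4 shallower (squares) libraries on the scale of log2 of CPM plus 0.1. Gap43 and Basp1 lie on opposite sides of 0 in the depth classes, while Gadd45a lies at 0.64 and 0.55.

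Cd44, the hyaluronan receptor of glia, immune cells, fibroblasts and some neurons, overlapped between the groups. It maps to chromosome 2 at 102811141 to 102901665. It stood at 200.1, 198 and 230.3 CPM in controls 1 to 3 and at 222, 226 and 289 CPM after the burn. Control 3 lay above burn 1 and burn 2, and burn 3 was the highest library. The fitted log2 fold change was 0.23 (SE 0.14). Within the deeper pair it was 0.33 and within the 4 shallower libraries 0.17, as log2 of CPM plus 0.1, so burn was higher at each depth. Markers of macrophages, which also carry Cd44, were lowest in the deeper libraries, at 384 CPM in control 3 and 425 CPM in burn 3, against 647 to 856 CPM in the other 4. Their part in the Cd44 values was not tested.

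Around Cd44, 18 of 19 other genes of hyaluronan synthesis, breakdown and binding were tested, 9 with a positive sign and a median log2 fold change of 0.00. None passed in edgeR, DESeq2 or limma-voom, and at an unadjusted p under 0.05 there was 1 with a positive and 2 with a negative sign. Hapln2, a link protein of hyaluronan at nodes of Ranvier that is also on the spinal cord list, stood at 0.738 ± 0.239 CPM in controls and 1.66 ± 0.377 after the burn (n = 3; log2 fold change 1.23, SE 0.34). Hmmr, a spindle protein of dividing cells that also binds hyaluronan, had -0.76 (SE 0.27), and Stab2, a scavenger receptor of sinusoids, -0.97 (SE 0.41). Vcan, the matrix proteoglycan versican, had 0.52 (SE 0.23).

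Itga7, the integrin subunit that binds laminin and is known from muscle and regrowing neurons, had no overlap between the groups. It spans 128933818 to 128958282 on chromosome 10. Itga7 stood at 140.1, 170.0 and 176 CPM in controls 1 to 3 and at 217, 228 and 189.8 CPM after the burn. The lowest burn library, burn 3, lay just above the highest control, control 3. The fitted log2 fold change was 0.39 (SE 0.13), with 0.11 in the deeper pair and 0.53 among the 4 shallower libraries as log2 of CPM plus 0.1. Skeletal muscle also makes Itga7. Among the 6 libraries, control 1 had the most muscle signal, 12797 CPM, and the least Itga7. Burn 2 had the highest Itga7 and 11700 CPM of muscle markers, and within the burn group both were highest in burn 2 and lowest in burn 3. The part of muscle in the Itga7 values was not tested.

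The partners of Itga7 were spread to both sides of 0. All 30 other integrin and laminin genes were tested, of which 14 had a positive sign, with a median of 0.00 on the log2 scale. None passed in edgeR, DESeq2 or limma-voom, and 1 was lower at an unadjusted p under 0.05. That gene was Itgb3 (-0.46, SE 0.19), which with Itga2b (-0.69, SE 0.36) forms the fibrinogen receptor of platelets. Lama1, a laminin chain, had 0.28 (SE 0.17), and Lamb3, a chain of epithelial laminin, 0.76 (SE 0.51).

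Gadd45a was the most even of the members whose groups were apart. Its product is a small stress protein that acts in DNA repair and demethylation and on stress kinases, encoded on chromosome 6 at 67035096 to 67037457. Gadd45a stood at 23.6, 22.3 and 19.5 CPM in controls 1 to 3 and at 32.9, 34.5 and 30.5 CPM after the burn. Every burn library lay well above every control, and the means were 21.8 ± 2.10 and 32.6 ± 2.01 CPM (SD, n = 3). The fitted log2 fold change was 0.58 (SE 0.12), a 1.49-fold difference, and it lay between 0.51 and 0.64 across 17 alternative settings. The deeper pair gave 0.64 and the 4 shallower libraries 0.55, as log2 of CPM plus 0.1. Exons of Gadd45a overlap 337 bases of E230016M11Rik on the other strand, and whether reads were assigned by strand is not known here. E230016M11Rik, named after its values were seen, stood at 7.99 ± 1.46 CPM in controls and 7.91 ± 0.0665 after the burn.

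The upstream window of Gadd45a, chr6:67037408-67037657 in GRCm38.p6 on the minus strand, is set beside that of Sprr1a because the groups were apart in both genes. The capitals mark the octamer ATTTGCAT and its reverse complement ATGCAAAT, a motif looked for after the sequence had been seen.
Gadd45a: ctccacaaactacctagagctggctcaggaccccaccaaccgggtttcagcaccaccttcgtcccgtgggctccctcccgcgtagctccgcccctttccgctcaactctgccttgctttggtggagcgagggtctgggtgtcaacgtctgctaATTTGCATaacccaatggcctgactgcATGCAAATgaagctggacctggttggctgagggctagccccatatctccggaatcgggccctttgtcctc
The octamers lie 97 to 90 and 70 to 63 bases before the start. The octamer was in 1.6% of all windows and 2 or more matches were in 0.0974%. This window held no TGANTCA and no TATAAA.

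The near relatives Gadd45b and Gadd45g, named after their values were seen, overlapped between the groups, with log2 fold changes of -0.11 (SE 0.23) and 0.12 (SE 0.16). All 17 other genes of the list of Gadd45 proteins and p53 targets were tested, 10 with a positive sign and a median of 0.01. None passed in edgeR, DESeq2 or limma-voom, and 2 were higher at an unadjusted p under 0.05. These were Zmat3, an RNA-binding p53 target, at 63.4 ± 3.78 CPM in controls and 91.0 ± 24.6 after the burn, and Pmaip1, the death-promoting protein Noxa, at 1.47 ± 0.359 and 2.31 ± 0.452 CPM (n = 3). Cdkn1a, the cell cycle inhibitor p21, had 0.29 (SE 0.17), and Bax, a pore protein of apoptosis, -0.18 (SE 0.11). The groups were apart and higher in Zmat3 and Pmaip1, beside 4.33% of all tested genes, and apart and lower in Bax, beside 2.91%. The nearest profiles to Gadd45a were those of D930048G16Rik, Glis3, a zinc finger factor, Serpinb1a, an inhibitor of neutrophil proteases, Gm9795 and Zfp939, at distances of 0.07 to 0.09 where Gadd45a varied by 0.31. Serpinb1a stood at 114, 107 and 111 CPM in controls and at 162, 183 and 153 CPM after the burn.

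Gch1, GTP cyclohydrolase, the first and rate-limiting enzyme of tetrahydrobiopterin synthesis and a known contributor to nerve injury pain, overlapped between the groups with the lower mean after the burn. It is on chromosome 14 at 47153895 to 47189413. Gch1 stood at 9.23, 8.35 and 6.72 CPM in controls 1 to 3 and at 6.98, 7.25 and 6.63 CPM after the burn. Control 3 lay among the burn libraries, and control 1 and control 2 lay above all of them. The log2 fold change was -0.22 (SE 0.17), the 1 negative value among the 9 tested members. It was close to 0 in the deeper pair, -0.02, and -0.30 among the 4 shallower libraries, as log2 of CPM plus 0.1. Of 14 other genes of this pathway 13 were tested, 5 with a positive sign and a median of -0.06, and none passed in edgeR (0 at an unadjusted p under 0.05), DESeq2 or limma-voom. Cbr1, a carbonyl reductase, stood at 42.6, 42.1 and 43.7 CPM in controls and at 36.6, 38.4 and 36.4 CPM after the burn, with the groups apart (-0.21, SE 0.09). Spr, sepiapterin reductase, had -0.15 (SE 0.11), Qdpr, the enzyme that recycles the cofactor, 0.16 (SE 0.13), and Th, tyrosine hydroxylase, which depends on it, -0.14 (SE 0.12).

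Arg1, arginase 1, supports polyamine synthesis in growing neurons and is also a marker of wound-healing macrophages. Found on chromosome 10 at 24915221 to 24927484, it was sparse. Arg1 had 10, 9 and 21 reads in controls 1 to 3 and 21, 17 and 25 after the burn, which is 0.273, 0.501 and 0.264 CPM against 0.928, 0.563 and 0.380 CPM. Burn 1 and burn 2 were the highest libraries, and burn 3 lay below control 2. The pooled ratio was 1.78 (95% exact interval 1.18 to 2.72, for counting error only), and the fitted log2 fold change was 0.89 (SE 0.45). Of 11 macrophage markers tested 10 had a positive sign, with a median of 0.22. Burn 1 had the highest macrophage sum, 856 CPM, and the highest Arg1. Control 1 was next in macrophage sum, 746 CPM, with Arg1 at 0.273 CPM. Burn 2, second in Arg1, had a sum of 647 CPM, below that of control 1 and of control 2 (705 CPM). The part of macrophages in the Arg1 value was not tested.

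Of 23 other genes of arginine and polyamine metabolism 19 were tested, 10 with a positive sign and a median log2 fold change of 0.01. None passed in edgeR, DESeq2 or limma-voom, and 1 was higher at an unadjusted p under 0.05. It was Arg2, the mitochondrial arginase, at 3.66, 3.45 and 3.67 CPM in controls and 4.73, 5.56 and 4.33 CPM after the burn, with the groups apart (0.44, SE 0.18). Ass1, argininosuccinate synthase, had -0.19 (SE 0.13), also with the groups apart but lower after the burn. Over all tested genes the groups were apart in 4.33% higher and 2.91% lower. Nos1, the neuronal nitric oxide synthase, had 0.18 (SE 0.16), and Oaz2, an antizyme that limits polyamines, -0.11 (SE 0.11).

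Reg3b, a secreted lectin that injured neurons and stressed gut and pancreas make, was at the edge of detection. The gene lies on chromosome 6 at 78370657 to 78373466. It had 3, 0 and 2 reads in controls 1 to 3 and 0, 8 and 3 reads in burn libraries 1 to 3. Burn 1 and control 2 had none, which allows at most 3 reads in each. The pooled ratio was 2.49 with a 95% exact interval of 0.797 to 9.14, so neither a difference nor its absence could be shown at this depth. The 8 markers of pancreatic acini, cells that also make Reg3b, summed to 27.3 to 28.8 CPM in controls and 24.3 to 31.9 CPM after the burn. Of these, 3 passed the filter (Cela1, Cpb1 and Pnlip), 5 had under 10 reads in every library, and 2 of those 5, Prss2 and Amy2a5, were at 0. Their part in the Reg3b reads was not tested. Extl3, a receptor for Reg proteins, was the 1 tested gene of this list and stood at 189 ± 10.01 CPM in controls and 201 ± 8.82 after the burn (n = 3).

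Set per length of exon, the members of control ganglia covered a wide range. CPM per kilobase of exon was 81.0 ± 13.1 for Gap43, 55.1 ± 12.3 for Basp1, 30.9 ± 2.66 for Cd44, 20.01 ± 2.35 for Itga7, 12.4 ± 1.19 for Gadd45a and 1.30 ± 0.203 for Gch1 (SD, n = 3). No neighbours among these 6 overlapped between control libraries. Below them Arg1 (0.155), Sprr1a (0.144) and Tgm1 (0.141) could not be ordered beyond their spread, and Reg3b stood at 0.0312. Gap43 lay at the 97.1st percentile of 16565 tested genes with a length, and Sprr1a at the 3.12th. After the burn Sprr1a averaged 16.4 ± 10.3 on the same scale, at the 81.6th percentile, next to Gadd45a at 18.5 ± 1.14. The order of Cd44 and Itga7 rests on the length used: per base of the longest transcript Itga7 stood at 40.3 and Cd44 at 37.3.

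**Figure D3:**
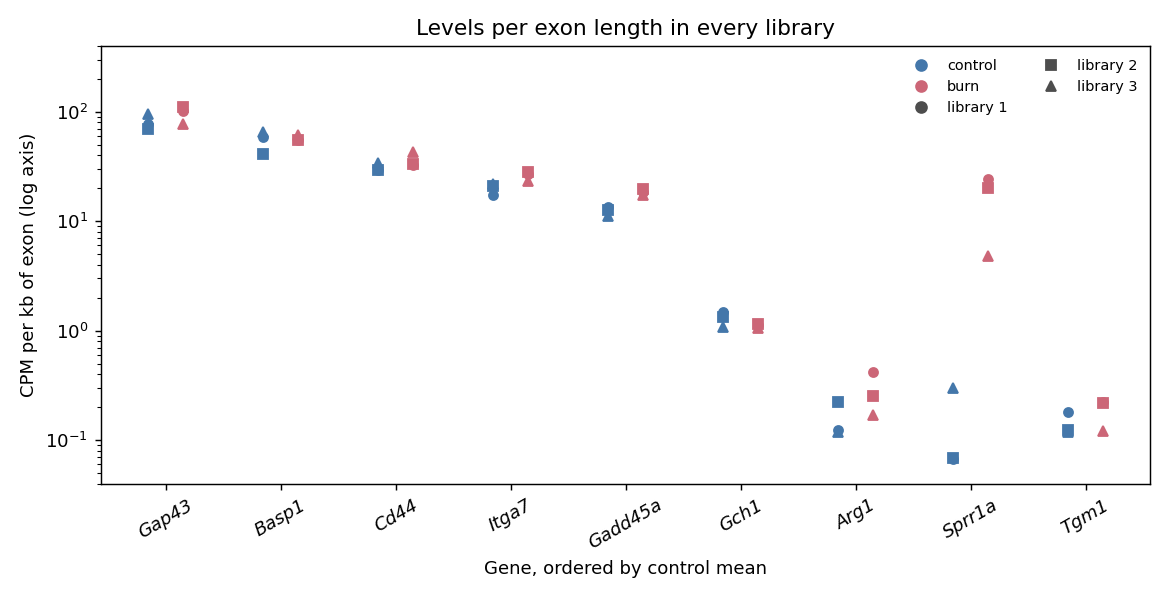
CPM per kilobase of exon (vertical log axis) in each control (blue) and burn (red) library for 9 genes ordered by control mean, with the library number as symbol shape; Reg3b, with zeros, is not drawn. Sprr1a lies at the level of Arg1 and Tgm1 in controls. After the burn its mean is 16.4 ± 10.3, with burn 3 at 4.79, beside 18.5 ± 1.14 for Gadd45a (SD, n = 3).

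Among the 9 tested members 8 had a positive log2 fold change, where 52.1% of all tested genes did. The groups were apart in 3 of the 10 (Sprr1a, Gadd45a and Itga7, all higher), beside 7.24% of tested genes (4.33% higher and 2.91% lower). None of the 9 passed in edgeR over all genes at an adjusted p under 0.05, where 0.0228% of all tested genes did, and these same 3 had an unadjusted p under 0.05, beside 2.96%. DESeq2 called 1 of them, Sprr1a (0.104% of genes), and limma-voom 0 (0.0171%). Sprr1a was also called by edgeR without burn 3 and among the 4 shallower libraries. Since the genes were picked with this comparison known, nothing is read from these counts.

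The regeneration-associated partners, other genes known from injured sensory neurons, held the 1 called gene of all partner lists. Of 31 tested 24 had a positive sign, the median log2 fold change was 0.16, 10 had an unadjusted p under 0.05 and were higher, and 11 were apart between groups and higher, beside 4.33% of all tested genes. Atf3 passed in edgeR (3.37, SE 0.15, adjusted p 0.000387), DESeq2 called 8 and limma-voom 1. The list was drawn up with earlier results of these data known, so it is not independent evidence of a direction. Atf3 stood at 6.99, 6.73 and 7.20 CPM in controls 1 to 3 and at 80.9, 75.6 and 60.0 CPM in burn libraries 1 to 3. Its burn libraries were thus far closer to each other than those of Sprr1a. Star, a cholesterol carrier of steroid-making cells, stood at 0.819, 0.946 and 0.943 CPM in controls and at 2.30, 2.95 and 3.06 CPM after the burn (1.62, SE 0.23, edgeR adjusted p 0.196). Ecel1 (2.86, SE 0.34) and the neuropeptide galanin, Gal (1.72, SE 0.22), had edgeR adjusted p of 0.0876 and 0.12. Over all 10 lists 153 of 193 genes were tested. At an unadjusted p under 0.05, 16 had a positive and 3 a negative sign, beside 2.04% and 0.924% of all genes.

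**Figure D4:**
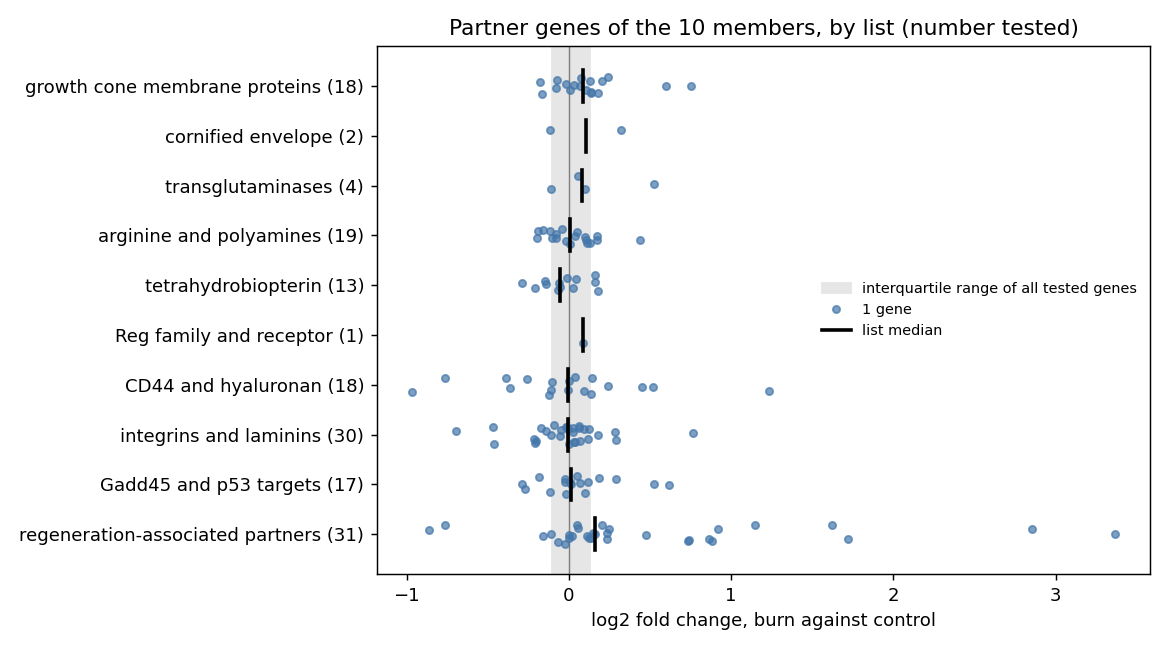
Log2 fold change of burn against control (horizontal axis) for each tested partner gene (points, members left out), by list, with list medians (black bars) and the interquartile range of all tested genes (grey). The medians of the lists lie between -0.06 and 0.16, and the regeneration-associated partners reach 3.37.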

How the data were processed

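The authors deposited raw read counts by gene symbol, with a file for each library. TruSeq stranded total RNA libraries were made, per the labels' protocols. Per the submitters' processing notes, STAR, SAMtools, HTSeq, mm10 and GRCm38 were used. The annotation release and strand setting were: not given in the sources used here. Lines naming no gene held 49.18% (95% Wilson interval 49.17 to 49.19) to 56.22% (56.20 to 56.23) of entries and were left out. Intervals cover counting error only. No replicates agreed within sampling noise (chi-square over its degrees of freedom at least 40.5).

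The test was edgeR 4.0.16 in R 4.3.3: filterByExpr (minimum count 10, total 15; 17534 genes), TMM, robust quasi-likelihood F-test, two-sided, group as the only term, and Benjamini-Hochberg adjustment over all genes, called under 0.05. The SE is the log2 fold change divided by the root of F. Alternatives used DESeq2 1.42.0, limma-voom 3.58.1, other scalings, filters, depth and left-out libraries. The fit was tested on simulated data. Lengths and positions came from GENCODE mouse release 21, in which 91.6% of symbols were found. Promoters came from RefSeq (GRCm38.p6).

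Members and lists were chosen with earlier results of these data known. Named were all members, up to 4 tested genes per list with the lowest p, and for Sprr1a, Gap43 and Gadd45a the 5 nearest profiles among genes averaging a log2 CPM of 0 or more (prior count 2).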

Additional observations from a re-analysis of the deposited data

How the results depend on the processing

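Over all genes edgeR called 4 higher and 0 lower. The higher count was 14 without a filter, 17 with a depth term, 11 in the 4 shallower libraries, 7 at an adjusted p under 0.1 and 28 in DESeq2, and 1 to 6 when each library was left out. The lower count was 21 with the depth term, 4 in the 4 shallower libraries and 0 in each leave-one-out fit. Partner genes called higher numbered 1, and 4 without a filter, 7 with the depth term, 4 in the 4 shallower libraries, 9 in DESeq2 and 1 to 2 when each library was left out. Members called numbered 0, and 1, Sprr1a, in the 4 shallower libraries (log2 fold change 8.24), in DESeq2 and, as a range of 0 to 1, when each library was left out. The fit with a replicate block over the libraries numbered 1 and 2 called 1 member, Sprr1a (log2 fold change 8.28). Whether the numbers pair the samples is not known. Deviations of same-numbered libraries correlated at -0.09 and -0.06. Those of burn 2 with control 1 and burn 1 with control 2 correlated at 0.38 and 0.44. So few correlations cannot show whether samples were paired. The causes of these differences were not tested.

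Of 151 alternative values of member fold changes 142 stayed within the replicate SD. The 9 that moved were 4 of Sprr1a, 3 of Gap43, and those of Gch1 and Itga7 in the deeper pair; among them Gap43 turned to -0.32. Without control 3 Sprr1a stood at 7.81. Of 70 levels per length 65 stayed, and the other 5 used the longest transcript. Depth limits Reg3b, Tgm1 and Arg1. The deeper pair was added after the data were seen.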

Other observations

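Reg1, a secreted relative of Reg3b and a member of the same list, did not pass the filter on low counts and was named after its values were seen. It had 0, 0 and 0 reads in controls 1 to 3 and 8, 15 and 7 reads in burn libraries 1 to 3. Had the control group held 3 reads, the 30 pooled burn reads would give a ratio of 11.3. That value leaves out the counting error of the burn reads and their spread, so it is not a lower limit. In the fit without a filter its edgeR adjusted p was 0.266, and in DESeq2 it was 0.0753, so it passed in neither. The other Reg genes of the list, Reg2, Reg3a, Reg3d, Reg3g and Reg4, had at most 3 reads in any library.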
